A study of Mus musculus with 18 samples.

Results

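Small leucine-rich proteoglycans are secreted extracellular matrix proteins, and their 9 genes listed here are Dcn, Bgn, Aspn, Lum, Fmod, Prelp, Omd, Ogn and Podn. They were taken by symbol from the UMI count tables of a single-cell RNA-seq study of the postnatal mouse heart, where they are 9 of 35808 genes counted, mitochondrial genes and spike-ins left out. They held 1545917 of the 608228964 UMIs (unique molecular identifiers, 1 per captured transcript) in the cells that passed the filters, or 0.254%.

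Heart cells from mice of P4, P7, P14 and P28 (postnatal days 4, 7, 14 and 28) were caught singly in the wells of ICELL8 chips, and the 18 samples are chips. The stage animals carried Myh6-driven Cre/Esr1 and an R26-tdTomato reporter, a label of cardiomyocytes (CMs) after tamoxifen given to the mother. Reporter and tamoxifen are shared by every stage. The mothers were dosed in the first days after delivery, so the time since tamoxifen differs by stage and cannot be told apart from it. A second set of P28 hearts had received lentivirus with a hairpin against Jun (shJun) or a non-targeting hairpin (shNT) in the left ventricle at P1, where only part of the cells takes up virus. CMs and other cells were separated by centrifugation, and the P4 and P7 hearts were dissociated with a digestion kit but the P14 and P28 hearts by Langendorff perfusion, so stage and dissociation cannot be told apart across that border. The well reports name 2 animals each at P4 (M1, M2), P7 (M1, M2) and P14 (m1, m2), 5 units at P28 and 2 animals per hairpin. The P28 units are named here by pair of chips, as 1-M1, 1-M2, 2, 3-M1 and 3-M2, and pair 2 names no animal and counts as 1. Whether M1 on the paired chips of P4 and P7 is the same animal was taken from the name.

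Of 23475 cell wells 19851 passed, with 11161784 to 133264535 UMIs per chip. Chips use the same well barcodes (4890 of 5051 occur on more than 1 chip), and cells were told apart by chip and barcode. Cells were clustered without the 9 genes, so their levels did not shape the clusters, and 2407 cells of the stage animals and 617 of the lentivirus animals were called fibroblast-like and 2899 of the stage animals CM-like from marker genes. All 8 fibroblast markers together stood at 9940 to 20000 CPM (UMIs per 1000000 UMIs of the sum) in the fibroblast-like sums and at 271 to 2090 CPM in the CM-like sums. The fibroblast-like wells were not free of other cells' RNA: summed CM markers were at 11400 to 13400 CPM at P4, 777 to 3610 CPM at P28 and 8130 to 59400 CPM in the lentivirus set, and summed erythroid markers, mostly globins, at 414 to 445 CPM at P4, 4900 to 11900 CPM at P7, 152000 to 193000 CPM at P14 and 2570 to 108000 CPM at P28. The P14 m2 sum holds 29 fibroblast-like cells, the fewest, and P28 1-M1 is far from the other P28 units for several of the genes. UMIs were summed per animal and cell class, and sums of at least 20 cells were compared.

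The family shares a core of leucine-rich repeats that binds collagen, and most members carry chondroitin, dermatan or keratan sulfate chains. Class I holds decorin (Dcn), biglycan (Bgn) and asporin (Aspn), class II lumican (Lum), fibromodulin (Fmod), Prelp and osteomodulin (Omd), class III osteoglycin (Ogn), and podocan (Podn) is a more distant member. In the heart they come mainly from fibroblasts, set the spacing of collagen fibrils, and bind TGF-beta family ligands and cell surface receptors.

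Several of the genes are neighbours in the mouse genome (GRCm38). Dcn (10:97479609-97518143, plus strand) lies 47.0 kb from Lum (10:97565128-97572703, plus strand). Aspn (13:49544443-49567565), Omd (13:49582462-49592822) and Ogn (13:49608046-49624501) follow each other on the plus strand with gaps of 14.9 and 15.2 kb, inside the span of Cenpp on the opposite strand. Prelp (1:133910304-133921414, minus strand) and Fmod (1:134037254-134048277, plus strand) lie 115.8 kb apart, and Bgn is at X:73483602-73495933 on the plus strand. Podn (4:108014791-108096445, minus strand) overlaps Scp2 on its own strand with no shared exon bases. Prelp shares 350 exon bases with the antisense gene Gm15851, so that reads of that pair could be split by the counting.

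The 250 bases before the RefSeq start (GRCm38.p6) are given for Aspn and Ogn, neighbours whose CM-like levels took different shares of the fibroblast-like level, and for Bgn, which at P4 and P28 had a smaller share of its UMIs in fibroblast-like cells than Dcn, Lum, Aspn or Ogn. Capitals mark matches to TATAAA or GGGCGG on either strand, and the sequences run 5′ to 3′ on the plus strand, at chr13:49544193-49544442 for Aspn, chr13:49607765-49608014 for Ogn and chrX:73483351-73483600 for Bgn.

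Aspn: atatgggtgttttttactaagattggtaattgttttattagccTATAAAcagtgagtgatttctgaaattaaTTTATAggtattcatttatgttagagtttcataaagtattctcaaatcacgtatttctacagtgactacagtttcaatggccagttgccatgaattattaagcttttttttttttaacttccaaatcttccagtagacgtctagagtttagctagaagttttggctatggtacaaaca
Ogn: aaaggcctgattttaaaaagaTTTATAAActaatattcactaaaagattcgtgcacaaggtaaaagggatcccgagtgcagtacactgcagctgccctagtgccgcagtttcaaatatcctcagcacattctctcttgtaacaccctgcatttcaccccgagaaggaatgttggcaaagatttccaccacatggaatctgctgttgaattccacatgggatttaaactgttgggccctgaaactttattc
Bgn: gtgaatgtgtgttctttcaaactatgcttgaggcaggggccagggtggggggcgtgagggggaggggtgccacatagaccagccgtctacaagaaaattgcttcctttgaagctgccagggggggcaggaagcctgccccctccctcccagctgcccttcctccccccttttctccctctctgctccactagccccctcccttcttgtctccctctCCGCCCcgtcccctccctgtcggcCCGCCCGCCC

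Matches were searched in the 8 windows of the 7 members that the RefSeq table holds, of which Podn has 2 and Dcn and Lum none. TATAAA was found in Aspn and in Ogn, in Ogn as 2 overlapping matches on opposite strands, and in 12.4% of 32851 windows of all genes. GGGCGG was found in Bgn, with 3 matches of which the last 2 overlap, and in 1 window of Podn, and in 32.7% of all windows. TGANTCA, the site bound by AP-1, a factor that Jun is part of, was in none of the 8 windows and in 6.75% of all windows. A match is a run of letters only, and its absence says nothing of the factor.

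Between P4 and P28 Dcn rose in fibroblast-like cells, and it was the 1 of the 9 genes past the threshold, where 2.25% of the 13577 genes tested were called (0.906% higher and 1.35% lower). Dcn, which binds collagen I and TGF-beta, stood at 4430 and 4740 CPM in the P4 animals and at 14300, 9970, 8960, 8310 and 8180 CPM in the P28 units, in the order given above. Every P28 unit lay above both P4 animals. The mean was 4580 ± 220 CPM (SD, n = 2) at P4 and 9950 ± 2550 CPM (SD, n = 5) at P28, a log2 difference of 1.26 (SE 0.26) with an adjusted p of 0.0169 (edgeR quasi-likelihood test with Benjamini-Hochberg adjustment over all genes, as for every adjusted p here unless another tool is named). The call held in 19 of 22 alternatives, and was lost without P4 M1 (adjusted p = 0.282), without P4 M2 (adjusted p = 0.204) and with sums per chip (adjusted p = 0.0707). Without P28 1-M1, the highest unit, the log2 difference was 1.10 (adjusted p = 0.0214). Leaving out cells with more marker UMIs of another class than of fibroblasts kept 135 of 365 and 216 of 431 P4 cells and gave a log2 difference of 1.07 (adjusted p = 0.0468).

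**Figure D1:**
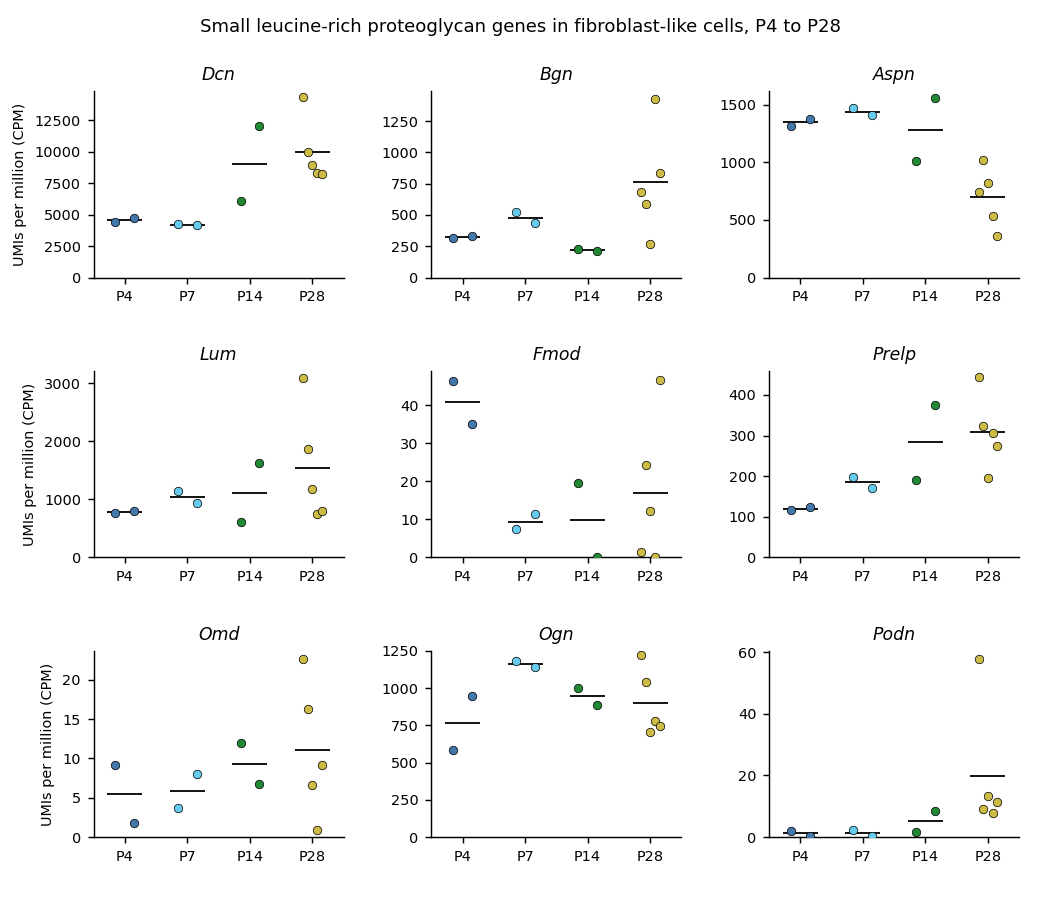
Levels of the 9 genes in fibroblast-like sums as UMIs per 1000000 UMIs (CPM, vertical axes from 0, each gene on its own scale) against stage, with 1 point per animal and a line at the stage mean. Dcn was at 4160 to 4740 CPM at P4 and P7 and at 6070 to 14300 CPM at P14 and P28, while Aspn was at 1320 to 1470 CPM at P4 and P7 and at 360 to 1020 CPM at P28.

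Of the 3 steps between neighbouring stages, Dcn passed the test only from P7 to P14. Dcn stood at 4260 and 4160 CPM at P7 and at 6070 and 12000 CPM at P14, a log2 difference of 1.4 (SE 0.295, adjusted p = 0.0486), and it was the 1 member called where 0.508% of genes were (0.368% higher). The P14 animals lay far apart from each other, and without P14 m2 the log2 difference was 0.98 (adjusted p = 0.299). The call was past the threshold in 8 of 22 alternatives (adjusted p from 0.008 to 0.427). In this step, where the dissociation also changed, the median log2 difference of all genes tested was -0.235, against which Dcn lay on the other side of 0, and the erythroid markers moved with it as given above. Without the globin genes the Dcn log2 difference was 1.49 (adjusted p = 0.0269).

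Neither of the other steps moved a member past the threshold. Between P4 and P7 the log2 difference of Dcn was -0.015, and 0 of the 9 genes were called against 0.00737% of genes (1 gene by edgeR, 372 at an unadjusted p under 0.05, and 75 by DESeq2, none of them a member). From P14 to P28 the Dcn difference was -0.123, and 0 of the 9 were called against 0.14% of genes (0.0147% higher and 0.125% lower, 19 by edgeR, 2038 at an unadjusted p under 0.05, 603 by DESeq2). DESeq2 called 1 member in that step, Aspn, with a log2 difference of -1.28 and an adjusted p of 0.0272, where edgeR gave -1.18 (SE 0.311, adjusted p = 0.144).

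Within class I the other genes were not called by edgeR. Aspn, which binds collagen and TGF-beta, was at 1320 and 1380 CPM at P4, 1470 and 1410 CPM at P7, 1010 and 1560 CPM at P14, and 745, 1020, 825, 531 and 360 CPM at P28. All P28 units lay below both P4 animals, but with a log2 difference of -0.821 (SE 0.314) Aspn did not pass the test (adjusted p = 0.266). Bgn, the closest relative of Dcn and a ligand of Toll-like receptors when released from the matrix, was at 313 and 336 CPM at P4, 520 and 433 CPM at P7 and 231 and 211 CPM at P14. At P28 it ranged from 265 CPM in unit 2 to 1430 CPM in 3-M1, with 681, 588 and 836 CPM in 1-M1, 1-M2 and 3-M2. These P28 values overlapped those of P4, and the log2 difference of 1.4 (SE 0.506) had an adjusted p of 0.227.

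Class II was led by Lum, a keratan sulfate proteoglycan that limits fibril thickness. It stood at 756 and 801 CPM at P4 and at 3090, 1870, 1180, 742 and 792 CPM at P28, so the P28 range ran from below the P4 animals to far above them (log2 difference 1.09, SE 0.465, adjusted p = 0.353). Prelp, an anchor between basement membrane and collagen, was higher in 5 of 5 P28 units, with 116 and 124 CPM at P4 and 443, 323, 196, 307 and 275 CPM at P28. Its log2 difference of 1.51 (SE 0.381) had an adjusted p of 0.053, which became 0.0448 without the globin genes and 0.0435 without P28 unit 2. Fmod, which guides collagen crosslinking, was sparse: 46.4 and 35.1 CPM at P4, 7.47 and 11.3 CPM at P7, 19.5 CPM in P14 m1, and 1.37, 24.2, 12.3 and 46.7 CPM in P28 1-M1, 1-M2, 2 and 3-M2. In P14 m2 and P28 3-M1 no Fmod UMI was counted, where 3 counts would be 5.06 and 2.66 CPM. Omd, best known from bone, stayed at 0.886 to 22.6 CPM in all 11 sums of the stages. Neither passed the test (adjusted p of 0.864 for Fmod and 0.826 for Omd).

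Ogn, the class III member, was not called in any step: 584 and 947 CPM at P4, 1180 and 1140 CPM at P7, 999 and 890 CPM at P14, and 1220, 1040, 703, 778 and 745 CPM at P28 (log2 difference between P28 and P4 of 0.37, SE 0.306, adjusted p = 0.757). Podn was near its detection limit at P4, at 2.02 and 0.409 CPM, and at 57.6, 8.99, 13.5, 7.98 and 11.4 CPM at P28. All P28 units were above both P4 animals, but the sums held 25 Podn UMIs over both P4 animals and the log2 difference of 4.09 (SE 1.397) was not past the threshold (adjusted p = 0.185). Of the 9 genes, 3 (Dcn, Prelp and Podn) lay higher at P28 without overlap and 1 (Aspn) lower, as did 5.56% and 15.3% of all genes tested. Across the 9 genes 7 had a P28-minus-P4 difference above 0, as did 7127 of the 13577 genes tested. The median was 1.12 for the 9 against 0.06 over all genes, and the 9 were not tested as a set.

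The makeup of the family's UMIs followed the rise of Dcn. Counted as UMIs, Dcn was 58.4% and 56.6% of the 9-gene total in the P4 animals and 48.6% and 50.3% in the P7 animals. It reached 66.4% to 73.7% in the P14 and P28 sums. The share of Aspn was 16.5% to 17.5% at P4 and P7 and 3.2% to 6.84% at P28.

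**Figure D2:**
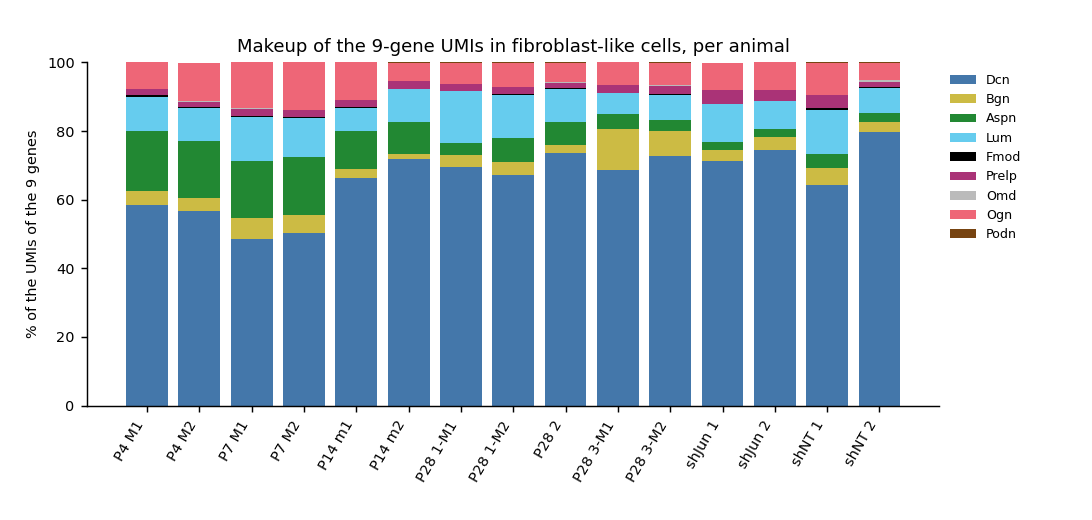
Makeup of the 9-gene UMIs in fibroblast-like sums, as percent of their total (vertical axis from 0 to 100), with 1 bar per animal and 1 colour per gene. Dcn is the largest part of every bar, with 48.6% in P7 M1 as its lowest share, and the Aspn part is largest in the P4 and P7 bars.

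Dcn was found in most fibroblast-like cells at both ends of the series. With each cell thinned to 1000 UMIs, 85.0% of fibroblast-like cells held a Dcn UMI at P4 and 97.8% at P28 (means over animals, 95.7% and 100% unthinned). In CM-like cells the thinned shares were 7.57% and 15.3% (49.0% and 44.2% unthinned). Median depths per animal in CM-like cells were 22677 to 28556 UMIs at P4 and 4426 to 34074 UMIs at P28. In fibroblast-like cells they were 13005 to 16216 UMIs at P4 and 8480 to 14156 UMIs at P28. The thinned share of fibroblast-like cells with a UMI went from 22.9% to 41.1% for Bgn, from 38.5% to 61.3% for Lum, from 7.25% to 20.7% for Prelp, from 34.7% to 40.1% for Ogn and from 45.6% to 30.4% for Aspn. Single cells held several members at once: 41.2% and 47.0% of the thinned fibroblast-like cells at P4, and 55.0% to 81.1% at P28, had UMIs of at least 3 of the 9 genes.

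Some early fibroblast-like clusters were rich in cell cycle transcripts. A P4 cluster of 45 and 47 cells per animal and a P7 cluster of 25 and 34 cells had summed cell cycle genes at 5590 to 7670 CPM, against 343 to 593 CPM in the other fibroblast-like clusters of these stages. Prelp was at 40.7 and 72.5 CPM in the P4 cycling cluster and at 122 and 128 CPM in the largest P4 cluster. Aspn was at 745 and 1030 CPM in the P7 cycling cluster and at 1530 and 1460 CPM in the largest P7 cluster, and Ogn at 846 and 639 CPM against 1200 and 1220 CPM. Dcn was also lower in the cycling clusters, at 3440 and 3980 CPM against 4600 and 4950 CPM at P4. At P7 it was at 3680 and 3620 CPM against 4310 and 4240 CPM. Fmod, which was sparse, was at 1.88 and 7.63 CPM against 45.6 and 40.6 CPM at P4. At P7 Fmod was at 0.0 and 1.44 CPM against 8.05 and 12.8 CPM. The remaining members did not keep 1 direction at P7. Lum was at 1400 and 571 CPM in the P7 cycling cluster against 1120 and 996 CPM. Bgn was at 687 and 378 CPM against 508 and 442 CPM. These values describe 2 animals per stage and were not tested. Without the cycling clusters the log2 difference of Dcn between P28 and P4 was 1.22 (adjusted p = 0.0238).

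Over all cell classes, fibroblast-like sums held the highest level of Dcn, Lum, Prelp, Ogn and Aspn in 11 of 11 stage animals, of Bgn and Omd in 10, of Fmod in 7 and of Podn in 5. The highest Podn level was in CM-like sums in 4 animals and in erythroid-like sums in 2. These class levels are a description. The second place was taken by different classes. For Ogn it went to CM-like sums in 5 of 11 animals and to erythroid-like sums in 5. For Aspn it went to mural-like sums in 4 and to erythroid-like sums in 4. At P28 erythroid-like sums held Dcn at 1960, 2410, 2040, 514 and 548 CPM. Their Ogn was at 116, 122, 131, 100 and 78.9 CPM. What part of these levels is RNA of other cells was not tested. Dcn was next highest in endocardial-like cells, the lining of the heart chambers, in 7 of 11 animals. In P14 m2, P28 3-M1 and P28 3-M2 that class was not ranked, with 3, 7 and 16 cells. Endocardial-like Dcn stood at 732 and 401 CPM at P4, 867 and 918 CPM at P7, 2190 CPM in the P14 sum and 3210, 2620 and 3840 CPM in the 3 P28 sums. Bgn was close between fibroblast-like and endocardial-like sums, with a median ratio of 1.58 over the animals (0.724 to 2.55), and in 1 animal the endocardial-like sum was higher. In mural-like cells, the pericytes and smooth muscle of vessels, Aspn was at 498 and 735 CPM at P4 and 988 and 647 CPM at P7, and the fibroblast-like level was 1.49 to 2.66 times that. In the lentivirus hearts mural-like Aspn was at 497 CPM in shJun 1 and at 422 and 629 CPM in shNT 1 and 2, above the fibroblast-like level in shJun 1 (291 CPM) and shNT 2 (341 CPM). A P28 group of 669 cells, 581 of them from 1 chip, carried fibroblast and endothelial markers at similar strength, was left unnamed for that and held Dcn at 2760 CPM and Lum at 829 CPM.

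**Figure D3:**
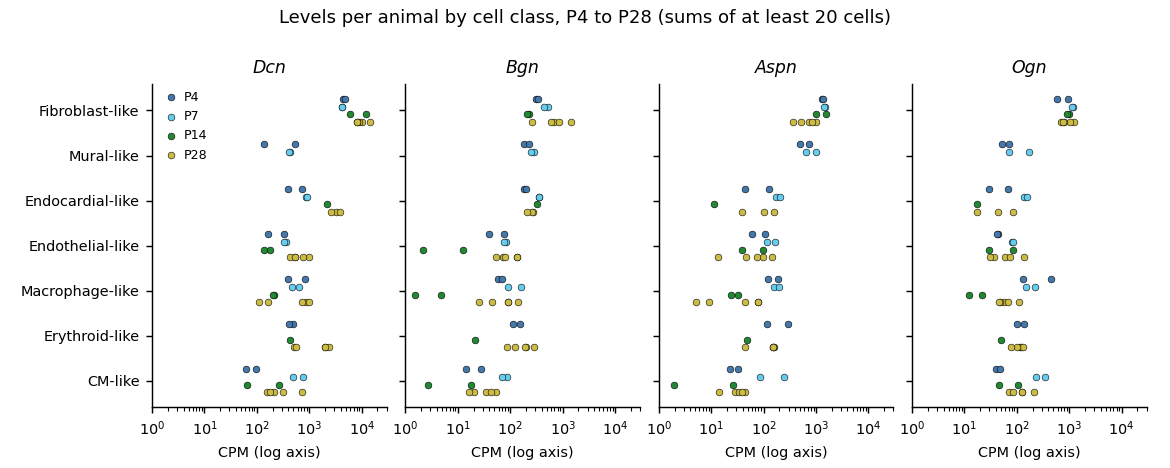
Levels of Dcn, Bgn, Aspn and Ogn (CPM, logarithmic horizontal axes) by cell class, with 1 point per animal and class coloured by stage, for sums of at least 20 cells of the stage animals. Within an animal the fibroblast-like point lies furthest right, except for Bgn in 1 animal, whose endocardial-like sum was higher, and CM-like Dcn runs from 63.1 to 757 CPM.

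The share of a gene's UMIs that lay in fibroblast-like cells depends also on how many such cells were loaded, 33.6% of cells at P4 and 11.9% at P28. At P4 it was 90.5% for Dcn, 89.3% for Lum, 87.0% for Aspn, 85.5% for Ogn and 70.3% for Bgn. At P28 it was 72.5% for Dcn, 65.2% for Lum, 68.6% for Aspn, 59.0% for Ogn and 54.1% for Bgn.

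In endothelial-like cells 0 of the 7 members tested were called between P4 and P28, where 1.28% of genes were (0.63% higher and 0.651% lower, 185 by edgeR, 1992 at an unadjusted p under 0.05, and 862 by DESeq2). Dcn was at 328 and 161 CPM at P4 and at 541, 975, 757, 431 and 526 CPM at P28, higher in 5 of 5 units, with a log2 difference of 1.52 (SE 0.445, adjusted p = 0.118). Prelp was at 15.3 and 3.94 CPM at P4 and at 25.7, 38.0, 29.7, 79.9 and 107 CPM at P28 (log2 difference 2.65, SE 0.974, adjusted p = 0.223). They were 2 of 7 members that lay higher at P28 without overlap, and Fmod lay lower, where 6.21% and 13.7% of all genes did. DESeq2 called both, with an adjusted p of 0.0143 for Dcn and 0.0202 for Prelp. Summed fibroblast markers in the endothelial-like sums were at 813 to 1390 CPM at P4 and at 1300 to 2170 CPM at P28. Of the 3189 endothelial-like cells of both sets, 1973 (61.9%) held more marker UMIs of another class than of their own. What part of the endothelial-like levels is RNA of fibroblasts was not tested.

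CM-like cells held most of the 9 genes at trace level, and in them Dcn and Ogn rose between P4 and P28. They were 2 of the 7 members tested, where 6.06% of 13458 genes were called (3.2% higher and 2.86% lower). Podn, sparse in both classes, was at 12.5 and 3.37 CPM in CM-like sums at P4, above the 2.02 and 0.409 CPM of fibroblast-like sums. Dcn stood at 94.7 and 63.1 CPM at P4 and at 737, 209, 153, 178 and 321 CPM at P28, higher in 5 of 5 units (log2 difference 2.21, SE 0.625, adjusted p = 0.0435). Ogn stood at 39.7 and 47.4 CPM at P4 and at 215, 71.2, 123, 83.0 and 127 CPM at P28, also higher in 5 of 5 units (log2 difference 1.73, SE 0.442, adjusted p = 0.0272). Both calls were lost without P28 1-M1 (adjusted p of 0.0766 for Dcn and 0.0572 for Ogn), without P4 M1 (0.217 and 0.293), without P4 M2 (0.324 and 0.186), and without the CM-like cells that held at least 2 UMIs in each of at least 2 markers of another class. That filter took out 4888 of 6340 CM-like cells of both sets (77.1%), and gave Dcn a log2 difference of 2.25 (adjusted p = 0.0575) and Ogn one of 1.16 (adjusted p = 0.275). The Dcn call was also lost without P28 3-M2 (adjusted p = 0.0571), with sums per chip and with at least 1000 genes per cell, so that it held in 15 of 22 alternatives and the Ogn call in 18 of 22. Of these 22, the limit of at least 50 cells per sum removed no CM-like sum, so its fit is the reported one. The other 5 members were not past the threshold, with Lum at a log2 difference of 2.25 (adjusted p = 0.121) and Prelp at 2.57 (adjusted p = 0.0941). Dcn, Ogn, Lum and Prelp were 4 of 7 that lay higher at P28 without overlap, as 10.3% of all genes tested did, and 0 of 7 lay lower, as 22.7% did.

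Fibroblast markers were also found in these CM-like sums. The 8 markers summed to 346 and 486 CPM in the CM-like sums of P4 and to 462 to 1330 CPM at P28, so the stages overlapped. Between P14 and P4, where 2.35% of genes were called (1.26% higher and 1.08% lower), 0 of the 7 members were (316 genes by edgeR, 2398 at an unadjusted p under 0.05, and 1025 by DESeq2, which called Ogn with an adjusted p of 0.038), and the marker sums at P14 were 271 and 638 CPM. The trace was highest at P7, for which no test had been planned: Dcn was at 757 and 497 CPM and Ogn at 228 and 338 CPM, in 53 and 140 CM-like cells whose fibroblast markers summed to 2040 and 2090 CPM. What part of the trace is RNA of fibroblasts was not tested.

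Beside each animal's own fibroblast markers, however, Ogn stood apart from Dcn. The level in CM-like cells was taken as percent of the level in fibroblast-like cells of the same animal. For Dcn it was 2.14% and 1.33% at P4 and 1.71% to 5.14% at P28. For Ogn it was 6.79% and 5.0% at P4 and 17.7%, 6.86%, 17.4%, 10.7% and 17.1% at P28. The 8 markers ran from 0.812% to 14.1% in P4 M1 and from 1.6% to 10.7% in P4 M2, so that Ogn lay within them. At P28 the highest marker was at 12.8%, 5.94%, 6.59%, 11.1% and 11.5%, and Ogn exceeded it in 4 of 5 units, 3-M1 being the exception. Ogn also exceeded the highest marker in P14 m2 and in all 4 lentivirus animals, and not in the P7 animals or P14 m1. Ogn was not alone in this among members with more than 10 UMIs in the CM-like sum. Podn, with few UMIs, exceeded the highest marker in both P4 animals, in P28 2 and 3-M1 and in all 4 lentivirus animals. Omd did so in P4 M1, and Omd and Fmod in shJun 1. In P14 m1 and P28 3-M2 the range rests on 7 markers. The P28 CM chips of pairs 2 and 3 held 0 fibroblast-like cells, and there CM-like cells had Dcn at 151 and 228 CPM and Ogn at 123 and 99.5 CPM, with the fibroblast markers at 457 and 682 CPM.

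**Figure D4:**
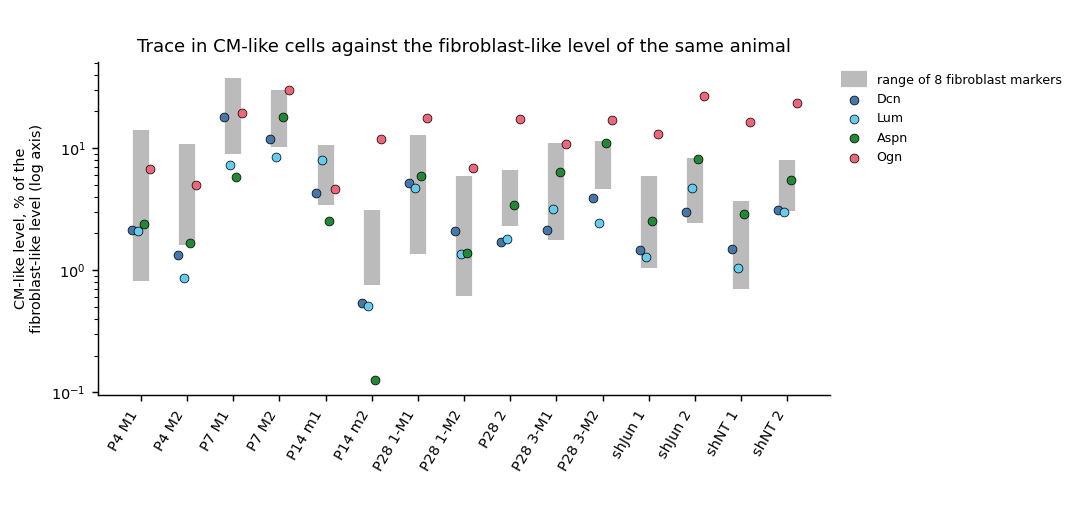
Level in CM-like sums as percent of the level in fibroblast-like sums of the same animal (logarithmic vertical axis), with 1 point per animal for Dcn, Lum, Aspn and Ogn. A grey bar runs from the lowest to the highest of the 8 fibroblast markers, of which 7 had a value in P14 m1 and P28 3-M2. Podn is not shown. Ogn lies above the bar in P14 m2, in 4 of 5 P28 units and in the 4 lentivirus animals, while Dcn lies within or below the bar in every animal.

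Counted as UMIs, 3.89% of all Ogn UMIs lay in CM-like cells at P4, 21.6% at P28, 36.1% in shJun and 46.6% in shNT hearts, against 1.17%, 4.57%, 6.26% and 9.18% for Dcn. Of the Podn UMIs, few in number, 67.5% at P4 and 12.8% at P28 were in CM-like cells. CM-like Podn was at 12.5 and 3.37 CPM at P4 and at 0.604 to 3.43 CPM at P28. Whether the change from P4 to P28 differed between fibroblast-like and CM-like cells was tested with the animal as a block, and 0 of the 9 genes passed, where 0.364% of 15680 genes did. The nearest were Podn, with a difference of 5.65 on the log2 scale (SE 1.674, adjusted p = 0.234), and Ogn, with -1.31 (SE 0.499, adjusted p = 0.432).

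In the lentivirus hearts the target, Jun, was at 25.4 and 32.1 CPM with shJun and at 54.2 and 61.3 CPM with shNT in CM-like cells, lower in both shJun animals but not among genes called. In fibroblast-like cells Jun was at 183 and 72.2 CPM with shJun and at 137 and 119 CPM with shNT, so the values overlapped and the labels could not be checked there. No member passed the test in either class. In fibroblast-like cells 0 of 9 were called beside 0.0% of 14050 genes (617 at an unadjusted p under 0.05, 102 by DESeq2, no member among them), and in CM-like cells 0 of 9 beside 0.0% of 17590 genes (380 at an unadjusted p under 0.05, 12 by DESeq2, again no member). Fibroblast-like Dcn was at 9810 and 7320 CPM with shJun and at 7770 and 11000 CPM with shNT, overlapping (log2 difference -0.159, SE 0.494, adjusted p = 0.999). Aspn was at 291 and 231 CPM against 504 and 341 CPM, lower in both shJun animals (log2 difference -0.698, SE 0.445, adjusted p = 0.999). Podn was at 8.22 and 4.39 CPM against 21.5 and 21.2 CPM, Fmod at 4.61 and 24.3 CPM against 70.6 and 26.2 CPM, and Omd at 0.622 and 5.49 CPM against 6.81 and 48.0 CPM, so that these 4 of the 9 genes lay lower with shJun without overlap, as did 14.3% of all genes tested, and none lay higher, as 16% of all genes did. Omd rested on 60 UMIs over both shJun animals. Summed epicardial markers in these fibroblast-like sums were at 227 to 236 CPM with shJun and at 414 to 1380 CPM with shNT. Schwann markers, at 80.4 to 113 against 18.6 to 34.8 CPM, and B cell and granulocyte markers lay higher with shJun. Their part was not tested. In CM-like cells Ogn was at 142 and 213 CPM with shJun and at 185 and 164 CPM with shNT (log2 difference -0.022, SE 0.258, adjusted p = 1.0).

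**Figure D5:**
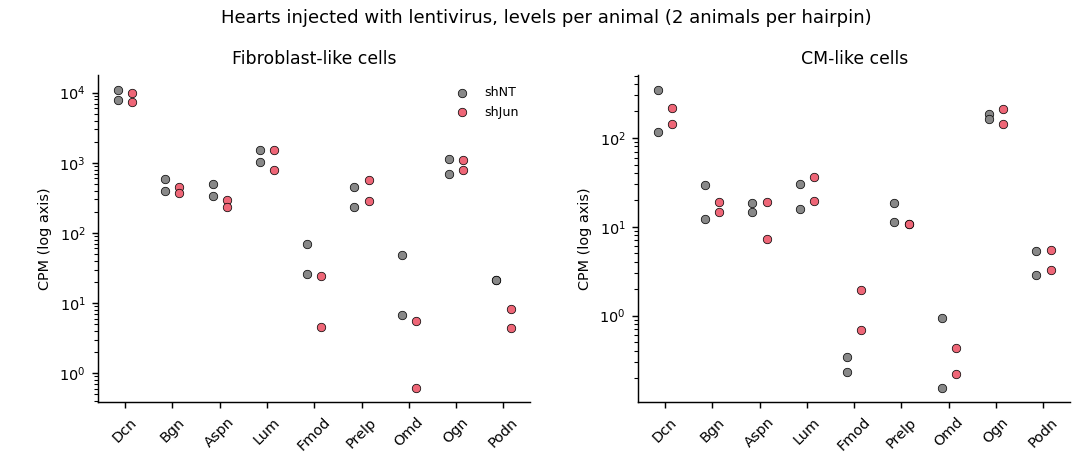
Levels of the 9 genes (CPM, logarithmic vertical axes) in fibroblast-like and CM-like sums of the lentivirus hearts, with 1 point per animal, grey for shNT and red for shJun. Dcn overlaps between hairpins in both panels, and Podn in fibroblast-like cells is at 4.39 to 8.22 CPM with shJun and at 21.2 to 21.5 CPM with shNT.

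Among genes that work with the family, few passed in fibroblast-like cells between P4 and P28, where 0.906% of all genes tested rose and 1.35% fell, with a median log2 difference of 0.06. Of 13 receptors and growth factors 1 rose and 0 fell, with a median log2 difference of 0.93: Tgfbr2, the TGF-beta type II receptor, was at 43.5 and 44.2 CPM at P4 and at 182, 124, 135, 134 and 151 CPM at P28 (log2 difference 1.88, SE 0.472, adjusted p = 0.0495). Of 8 proteases that cut the family's proteins or their partners 1 rose and 0 fell (median 0.94): Adamts5, an aggrecanase, was at 144 and 202 CPM at P4 and at 806, 595, 329, 350 and 438 CPM at P28 (log2 difference 1.67, adjusted p = 0.0368). Of the 3 tested among 9 further family members 1 fell, Epyc, with 265 and 11 UMIs in the P4 animals and 0, 0, 2, 0 and 0 UMIs at P28 (log2 difference -6.48, SE 1.393, adjusted p = 0.0236). None of the 17 enzymes of chain assembly (median -0.02) or of the 10 collagens that the family binds (median -0.18) was called.

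The genes whose pattern over 71 sums of all classes and stages was most like that of Dcn were Lum (Pearson's r = 0.927 of log2 CPM), Mfap5 (0.899), Islr (0.85), Adamts5 (0.837) and Prelp (0.836). For Bgn they were Col1a2 (0.829), Fbn1 (0.828), Rcn3 (0.826), Col1a1 (0.823) and Spon2 (0.816). Between members, Lum and Prelp had an r of 0.816, Bgn and Dcn 0.746, Aspn and Ogn 0.743, and Dcn and Ogn 0.657. These values are a description over 9552 genes, since sums of 1 animal share chips and depth, and fibroblast-like sums stand apart from all others.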

How the data were processed

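The authors mapped the reads with STAR (2.5.2b) to mm10 and counted UMIs per gene with featureCounts of Subread (1.4.6-p1), per the labels, and deposited the raw UMI counts of every well with a report that names the animal of the well on all but 1 pair of chips. Here cells with at least 500 genes and log10 UMIs within 2 SD of their group's mean were kept, and wells per stage were clustered (10 principal components, 30 neighbours, Leiden resolution 0.8, and 1 for the lentivirus set) without the 9 genes or the further family members and collagens, other than the naming markers. Clusters were named "-like" from 13 fixed marker lists by rules set after the clusters were seen, so class names are rebuilt here. No doublet caller was run, since wells had been imaged. Counts were summed per animal and class (at least 20 cells) and tested with edgeR 4.0.16 in R 4.3.3 (quasi-likelihood, TMM, filterByExpr, Benjamini-Hochberg threshold 0.05), with all 4 stages in 1 fit and the lentivirus animals in another. CPM are UMIs per 1000000 of the sum, without TMM. DESeq2 1.42.0 was an alternative. Scripts were tested on simulated data. In fibroblast-like P28 against P4, 0 of 60 changes of 2-fold, 3 of 73 of 4-fold and 43 of 67 of 16-fold were recovered. In fibroblast-like shJun against shNT these were 0 of 63, 0 of 77 and 13 of 60. In CM-like P28 against P4 they were 1 of 73, 15 of 65 and 54 of 62. A gene that was not called may thus still have changed. GEO's labels give no replicate numbers, and animals are counted as the well reports name them, which need not be the study's own count of mice. With 2 to 5 animals per group p-values measure the spread between these animals. Each stage was on its own chips, so stage and chip cannot be told apart. The animals of P4 share their chips, as do those of P7, so their spread leaves out that between chips. Fibroblast-like Bgn was at 498 and 219 CPM on the 2 chips of P4 M1 and at 371 and 314 CPM on those of P4 M2. All 9 genes are named, and the members, lists and tests were chosen with earlier results of these data known. Likeness used genes of at least 10 CPM on average. Python 3.11.15, scikit-learn 1.9.0, igraph 0.11.9 and leidenalg 0.10.2 were used. Sequences are from RefSeq (7 of 9 members matched).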

Additional observations from a re-analysis of the deposited data

Results flagged for a closer look

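P28 1-M1 lay far from the other 4 P28 units in 4 of 26 groups of 5 sums tested, where chance alone marks about 1 group in 20. Podn in fibroblast-like cells was at 57.6 CPM there, and the next unit was at 13.5 CPM. In CM-like cells it held Dcn at 737 CPM (next 321 CPM), Lum at 145 CPM (next 25.1 CPM) and Fmod at 2.47 CPM (next 0.698 CPM). Its chip of CMs held 24 fibroblast-like cells over both its animals, and its CM-like fibroblast markers were the highest of P28 at 1330 CPM. Their part was not tested.

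UMIs of the genes were also counted in control wells, which the comparisons do not use. In the positive control wells of the stage chips, 18 Dcn UMIs lay in 9 of 61 wells and 4 Lum UMIs in 2 wells. In those of the lentivirus chips, 26 Dcn UMIs lay in 12 of 30 wells, 88 Bgn UMIs in 3, 6 Lum UMIs in 6 and 4 Ogn UMIs in 4. The negative control wells held 15 Dcn UMIs in 11 of 60 wells on the stage chips, and on the lentivirus chips 30 Dcn UMIs in 10 of 30 wells, 5 Prelp UMIs in 4 and 9 Ogn UMIs in 6. Control wells held a median of 135 (positive) and 111 (negative) UMIs of all genes on the stage chips, and 731 and 476 on the lentivirus chips.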

How the results depend on the processing

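Of 180 counts of members called under an alternative, 145 were the same as the reported one, 24 were lower and 11 higher. The limit of at least 50 cells left the endothelial-like, CM-like and hairpin fits unchanged. In the fibroblast-like stages it gave the fit without P14 m2, so these alternatives are not all separate. Among 75 pairs of member and comparison, 62 were past the threshold in no fit (74 of their 1195 alternative values had another sign), and the 13 past it in any fit had 0 of 283 values with another sign. Alternatives for cells with more markers of another class, unnamed clusters, cycling clusters and globin genes were chosen after seeing the data.

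In fibroblast-like cells the count was 0 between P4 and P7 under all alternatives (leaving out 1 sum, 0 to 0). Between P7 and P14 the count of 1 became 0 with only these stages in the fit, at least 50 cells, at least 1000 genes per cell, without cells with more markers of another class, with unnamed clusters placed in their leading class, without cycling clusters and with sums per chip (leaving out 1 sum, 0 to 1). Between P14 and P28 the count of 0 became 1 under DESeq2 (leaving out 1 sum, 0 to 0). Between P4 and P28 the count of 1 became 3 under DESeq2 (Dcn, Podn, Prelp), 2 without globin genes and 0 with sums per chip (leaving out 1 sum, 0 to 2). The endothelial-like count of 0 became 2 under DESeq2, 1 with no filter and 1 without cells with more markers of another class. The CM-like count of 0 between P4 and P14 became 1 under DESeq2 and 1 with no filter. The CM-like count of 2 between P4 and P28 became 4 under DESeq2, 4 with no filter (Omd among them lower), 3 with unnamed clusters placed in their leading class, 1 with at least 1000 genes, 1 with sums per chip and 0 without mixed cells (leaving out 1 sum, 0 to 2). The hairpin counts stayed at 0, also with the replicate block of the chips that paired animals share.

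Calls over all genes moved more. From edgeR to DESeq2 they went from 1 to 75 (P7 against P4), 69 to 779 (P14 against P7), 19 to 603 (P28 against P14) and 306 to 779 (P28 against P4) in fibroblast-like, 185 to 862 in endothelial-like, and 316 to 1025 (P14) and 816 to 1633 (P28) in CM-like cells. With only the 2 stages in the fit the same comparisons gave 142, 0, 0 and, where over 1.5 times apart, 112, 60 and 1308. Leaving out 1 sum gave 0 to 7, 2 to 176, 0 to 252, 29 to 390, 17 to 195, 18 to 406 and 141 to 1008. With no filter they were 3, 581, 657 and 1244 for the first, the endothelial-like and both CM-like comparisons, and 127 and 401 for the hairpins in fibroblast-like and CM-like cells (0 reported; 6 with the replicate block and 0 to 340 leaving out 1 sum in CM-like cells). Without mixed cells the CM-like calls were 70 and 200. Leaving out mixed cells was not run for fibroblast-like and endothelial-like cells, where it left a group with no sum. The causes were not tested.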
